A study of Mus musculus with 2 samples.

Results

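Car4 Omg granulosa cells were the cells of the ovary that combined the granulosa gene Inha with a small set of genes led by Car4 and Omg. A cell with at least 500 genes and at most 25% mitochondrial counts was a member when Inha reached 2000 CPM (counts scaled to a cell total of 1e+06), at least 3 of 6 marker genes (Car4, Omg, Cacna2d2, Slitrk1, Pld5 and Pcsk6) had a molecule, Inhba stayed under 2000 CPM and 6 summed mitosis genes stayed under 500 CPM. The members, chosen by measured levels of these genes, were 140 cells in PS-MP and 290 in control, of 29623 kept cells. The levels of the rule's genes therefore describe the rule and support nothing else.

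The tissue was whole ovary of female ICR mice, an outbred strain, dissociated into single cells and counted with unique molecular identifiers (UMIs) on the BD Rhapsody platform. PS-MP mice received polystyrene particles of 0.1 µm by gavage, at 1 mg in 100 µL each day for 35 days from 3 weeks of age, and control mice received distilled water over the same days. Ovaries were taken at 8 weeks. The labels give 16 mice for each group but tie no cell to a mouse, so each group is 1 library. Treatment and library therefore cannot be told apart and no difference could be tested, and every interval given is a 95% interval for counting error only.

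Granulosa cells surround the oocyte, feed it through gap junctions, and make inhibin, activin and estradiol as the follicle grows under FSH. The inhibin subunits Inha, Inhba and Inhbb, the FSH receptor Fshr and the activin-binding protein Fst mark steps of that growth. Foxl2 keeps granulosa identity, and Wt1 is a transcription factor of early follicles. The markers of the rule come from other settings. Car4 is a membrane-anchored carbonic anhydrase, Omg is a surface glycoprotein first described in myelin, Cacna2d2 is an auxiliary calcium channel subunit, Slitrk1 is a neuronal adhesion protein, Pld5 belongs to the phospholipase D family, and Pcsk6 is a proprotein convertase that processes TGF-beta family precursors. Gatm, which catalyses the first step of creatine synthesis, was listed with the markers but was not used by the rule.

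The 250 bases before the annotated start are shown for Car4 and Pcsk6, which the rule used, and for Gatm, which was listed with the markers. They are RefSeq windows of build GRCm38.p6, written 5′ to 3′ on the strand of the gene, with CpG dinucleotides in capitals. The Car4 window lies at chr11:84957504-84957753 on the plus strand, the Pcsk6 window at chr7:65861886-65862135 on the plus strand and the Gatm window at chr2:122611278-122611527 on the minus strand.
Car4: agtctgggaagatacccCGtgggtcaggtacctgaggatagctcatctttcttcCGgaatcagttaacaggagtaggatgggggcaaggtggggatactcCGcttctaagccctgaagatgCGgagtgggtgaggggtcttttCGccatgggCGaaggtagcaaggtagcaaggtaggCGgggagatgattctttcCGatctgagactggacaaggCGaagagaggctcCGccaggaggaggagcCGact
Pcsk6: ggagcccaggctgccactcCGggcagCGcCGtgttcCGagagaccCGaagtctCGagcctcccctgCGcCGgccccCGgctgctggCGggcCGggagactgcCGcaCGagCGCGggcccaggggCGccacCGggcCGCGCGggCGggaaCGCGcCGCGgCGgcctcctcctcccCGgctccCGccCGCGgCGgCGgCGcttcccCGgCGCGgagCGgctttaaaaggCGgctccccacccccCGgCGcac
Gatm: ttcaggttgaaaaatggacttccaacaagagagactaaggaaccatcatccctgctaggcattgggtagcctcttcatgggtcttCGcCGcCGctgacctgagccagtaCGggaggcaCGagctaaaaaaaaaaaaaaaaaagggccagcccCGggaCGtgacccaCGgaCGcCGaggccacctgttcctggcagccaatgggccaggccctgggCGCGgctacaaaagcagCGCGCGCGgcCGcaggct
The Pcsk6 window held 40 CpG, the Gatm window 17 and the Car4 window 11, against a median of 6 over 32817 such windows. Motifs were searched on both strands in 18 windows of 15 genes. These were the 6 rule markers without Omg, whose levels the rule set, and genes that were higher in members than in the other Inhba-low cells. The latter were Gatm, Wnt4, Wnt6, Nkd1, Axin2, Dmrta1, Nos1, Igf2bp2, Hs6st2 and Gstm6. None of the 18 windows held a TCF/LEF motif (CTTTGAT or CTTTGAA), an RBPJ motif (GTGGGAA), an NR5A motif (CAAGGTCA or CAAGGCCA), a FOX motif (TGTTTAC) or a GATA motif (AGATAA). These letters stand in 7.48%, 5.42%, 3.28%, 3.16% and 9.99% of all windows, in the same order.

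The libraries held 15056 cells for PS-MP and 15373 for control, of which 14770 and 14853 were kept. Members had a median of 7547 UMIs in PS-MP and 8353.5 in control, against 8177 and 9328 in the other Inhba-low cells of PS-MP and control, and summed to 1248288 UMIs in PS-MP and 2944750 in control. No member barcode occurred in both libraries, and a doublet caller marked 2 PS-MP and 5 control members. The median mitochondrial share of members was 13.8% in PS-MP and 14.1% in control, against 10.4% and 10.5% in the other Inhba-low granulosa cells of PS-MP and control. Under a mitochondrial limit of 10%, 7 PS-MP and 15 control members remained. The part of this higher share in the results below was not tested.

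Members made up 0.948% of kept PS-MP cells (interval 0.798 to 1.12%) and 1.95% of kept control cells (1.74 to 2.19%). The share was lower in PS-MP with every denominator, at 1.46% against 2.95% in control among Inha cells, and 2.89% against 6.16% in control among Inhba-low non-dividing granulosa cells. All cells with Inha at the limit were 65.1% of PS-MP and 66.2% of control cells. Lower shares in PS-MP were not particular to the members: Inhba-high cells (2000 CPM or more) were 11.6% of PS-MP and 15.5% of control cells, Amh-positive cells (200 CPM or more) 6.78% of PS-MP and 8.45% of control cells, Ghr Galnt15 Ntn4 cells (with at least 2 of these 3 genes) 3.34% of PS-MP and 4.63% of control cells, and Ntng1 Lrrtm3 Slc38a3 cells (likewise) 8.68% of PS-MP and 11.9% of control cells. Not every granulosa set was lower in PS-MP. The other Inhba-low cells were 31.9% of PS-MP and 29.8% of control cells. All Inhba-low non-dividing granulosa cells, members included, were 32.8% of PS-MP and 31.7% of control cells. Another cluster, with no member in it, held 2039 PS-MP cells and 9 control cells, so the libraries also differed in their other cells. The share stayed lower when every cell was thinned to 3500 UMIs, at 0.623% in PS-MP and 1.16% in control. Under the mitochondrial limit of 10% it was 0.0819% in PS-MP and 0.171% in control, and the interval of that difference includes 0.

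A clustering that did not use the rule placed 134 of 140 PS-MP members (95.7%) and 276 of 290 control members (95.2%) in 1 cluster. The top 10 genes of that cluster by fold were Pcsk6, Car4, Gatm, Omg, Cacna2d2, Dmrta1, Pld5, Itga6, Gstm6 and Slitrk1. The cluster was larger than the rule, with 367 cells in PS-MP (2.48% of kept cells) and 670 in control (4.51%). Of its non-members, 140 in PS-MP and 230 in control had fewer than 3 markers, and 127 in PS-MP and 217 in control fell under the Inha limit. Rule and clustering read the same counts, so their overlap is a description.

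Car4 was at 251 CPM in PS-MP members and 281 CPM in control members, against 0.457 and 2.23 CPM in the other Inhba-low cells of PS-MP and control. Omg was at 176 CPM in PS-MP members and 96.1 CPM in control members, against 1.01 and 0.456 CPM in the other Inhba-low cells of PS-MP and control. Pcsk6, the most abundant of the 6, reached 1041 CPM in PS-MP members and 923 CPM in control members, and 50.6 and 60.2 CPM in the other cells of PS-MP and control. The defining genes differed in how many members carried them: Pcsk6 had a UMI in every member, Cacna2d2 in 75.7% of PS-MP and 69.7% of control members, and Slitrk1 in 47.9% of PS-MP and 36.9% of control members. In cells with under 500 CPM of Inha, with a median depth of 7287 UMIs in PS-MP and 8071 in control, a UMI was found for Cacna2d2 in 1.13% of PS-MP and 2.01% of control cells and for Slitrk1 in 0.789% of PS-MP and 0.709% of control cells. Gatm reached 1682 CPM in PS-MP members and 1493 CPM in control members, against 41.5 and 58.4 CPM in the other Inhba-low cells of PS-MP and control. It was thus 40.5 times the other cells in PS-MP and 25.6 times in control. The rule did not use Gatm, but it was listed with the markers beforehand, so its level is a description. Cells with under 500 CPM of Inha had 144 CPM of Gatm in PS-MP and 254 CPM in control. Inha itself was lower in members, at 3840 CPM in PS-MP and 3885 CPM in control, against 7471 and 6651 CPM in the other cells of PS-MP and control.

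**Figure D1:**
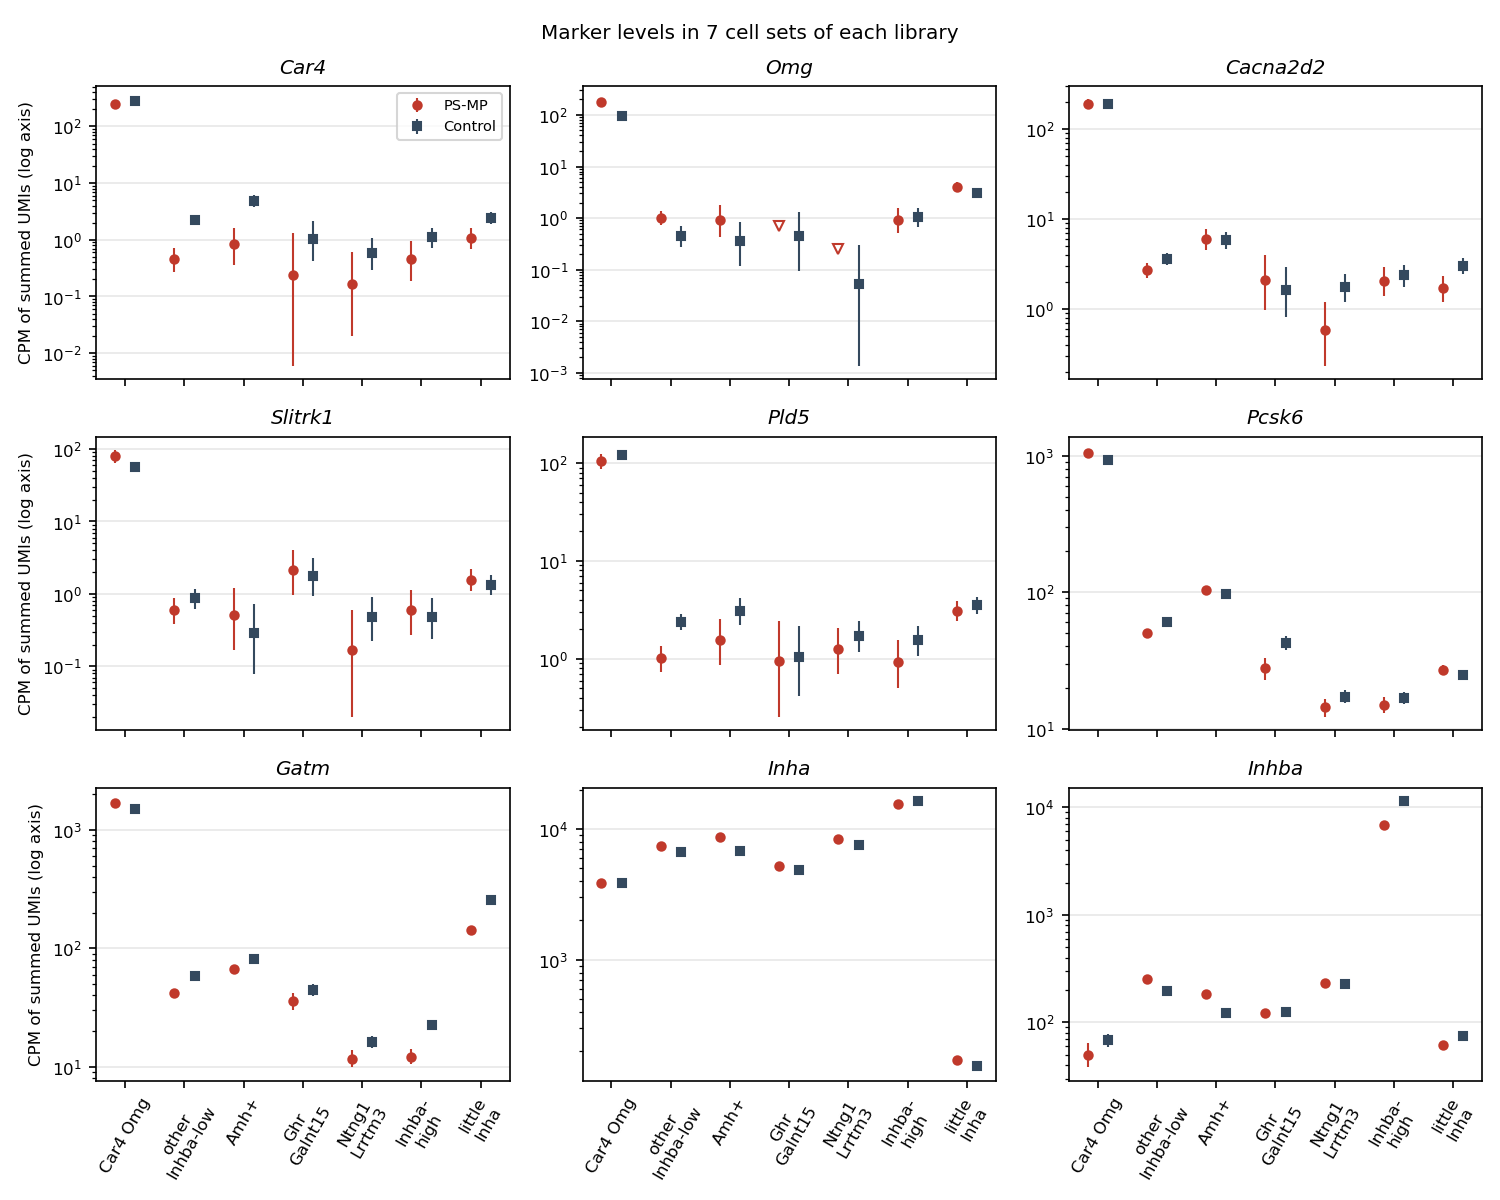
Level of the 6 rule markers, Gatm, Inha and Inhba in 7 cell sets, as CPM of summed UMIs on a log axis, with PS-MP (circles) left of control (squares); bars are 95% counting intervals and open triangles mark the limit that a count of 0 allows. Car4, Omg, Cacna2d2, Slitrk1, Pld5, Pcsk6 and Gatm are highest in the Car4 Omg cells of both libraries, whereas Inha is lower there than in the other granulosa sets.

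Levels moved in steps with the number of the 6 markers that were detected. Depth also differed over these steps. Median UMIs were 8053 in PS-MP and 9296 in control cells with no marker, and 6945 in PS-MP and 7183 in control with 2. They were 6703 in PS-MP and 7220 in control with 3 markers, and 11201 in PS-MP and 12826.5 in control with 6. The part of depth in the steps was not tested. Among Inhba-low cells, Gatm was at 12.4 CPM in PS-MP and 17.4 CPM in control cells with no marker and at 81.6 CPM in PS-MP and 91.9 CPM in control cells with 1. Just outside the rule, in 108 PS-MP and 166 control cells with 2 markers, Gatm was at 706 CPM in PS-MP and 823 CPM in control. Just inside it, in 63 PS-MP and 139 control cells with 3, it was at 1539 CPM in PS-MP and 1423 CPM in control, and with 4 to 6 markers it lay between 1412 and 1793 CPM over both libraries. Fst, which binds activin, ran the other way, at 817 CPM in PS-MP and 830 CPM in control cells with no marker, 341 CPM in PS-MP and 241 CPM in control with 2 markers, and 135 CPM in PS-MP and 102 CPM in control with 3. Igfbp5, an IGF-binding protein, peaked in between for PS-MP, at 1199 CPM with 2 markers and 751 CPM with 3. Control cells had 974 CPM of Igfbp5 with 2 markers and 1189 CPM with 3.

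**Figure D2:**
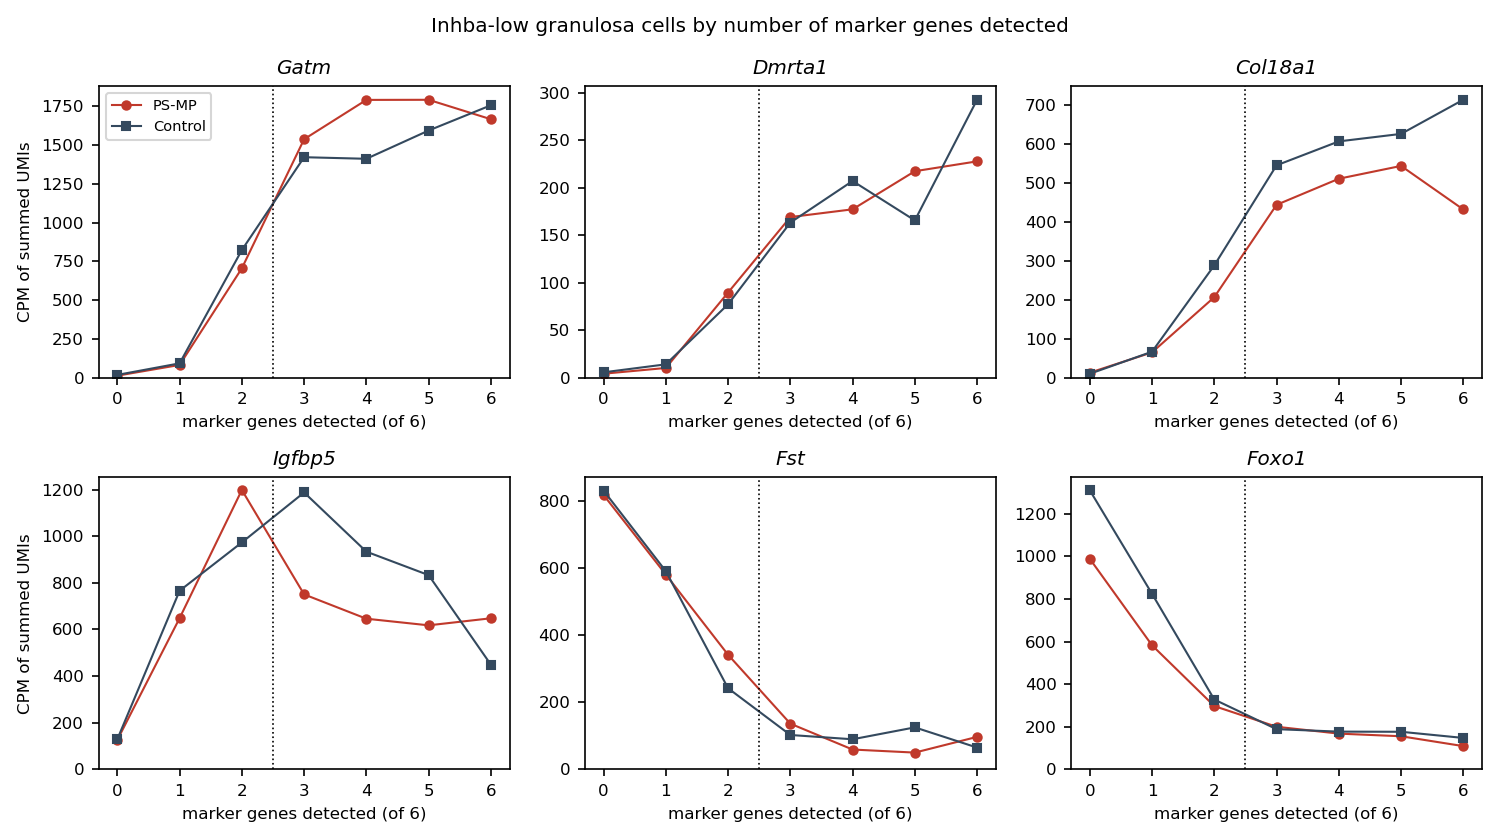
CPM of 6 genes that the rule did not use (y axes start at 0), in Inhba-low non-dividing granulosa cells by the number of the 6 marker genes detected (x axis), for PS-MP (circles) and control (squares); the dotted line is the membership limit. Gatm, Dmrta1 and Col18a1 are higher, and Fst and Foxo1 lower, on the member side of the line in both libraries.

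Against the other Inhba-low granulosa cells, 481 of 8074 genes with at least 20 CPM in a set were at least 2 times higher in members of both libraries (5.96%), and 410 were at least 2 times lower (5.08%). Against Inhba-high cells, 629 of 8149 genes were higher (7.72%) and 503 lower (6.17%), 13.9% in either direction. Against Amh-positive cells 538 of 8117 were higher (6.63%) and 425 lower (5.24%), 11.9% in either direction. Against Ghr Galnt15 Ntn4 cells 512 of 8064 were higher (6.35%) and 439 lower (5.44%), 11.8% in either direction. Against Ntng1 Lrrtm3 Slc38a3 cells 633 of 8080 were higher (7.83%) and 469 lower (5.8%), 13.6% in either direction. Over all 5 sets, 293 genes were 2 times higher than in each, 6 of them rule genes, and 120 were lower than in each. Each comparison covered 8064 to 8149 genes, and a share over genes tested in all 5 is not given. The 5 comparisons are not separate. The Amh-positive, Ghr Galnt15 Ntn4 and Ntng1 Lrrtm3 Slc38a3 cells are parts of the other Inhba-low cells. They also overlap, with 649 cells both Amh-positive and in the Ntng1 set. Apart from Gstm2, the genes named next are among the 15 outside the rule with the highest ratios over the other Inhba-low cells. The 15, which include Gatm, were ranked by the smaller ratio of the libraries. Gstm2 was chosen after its values were seen. Nos1, the neuronal nitric oxide synthase, was at 90.5 CPM in PS-MP members and 51.3 CPM in control members, against 1.20 and 2.39 CPM in the other cells of PS-MP and control. Dmrta1, of the DMRT transcription factor family, was at 187 CPM in PS-MP members and 184 CPM in control members, against 7.20 and 9.54 CPM in the other cells of PS-MP and control. Col18a1, a basement membrane collagen whose cleaved end is endostatin, was at 486 CPM in PS-MP members and 595 CPM in control members, which was 18 times the other cells in PS-MP and 19.8 times in control. Itga6, the laminin receptor subunit, was at 1640 CPM in PS-MP members and 1511 CPM in control members, against 135 and 159 CPM in the other cells of PS-MP and control. Col18a1 and Itga6 both belong to contact with the basement membrane. Igf2bp2, Hs6st2, Angptl6, Akap12, Kcnq1, Calb1 and Ildr2 were 10.5 to 22.1 times the other cells in PS-MP and 10.9 to 19.2 times in control. Gstm6 was 20.3 times higher in PS-MP and 16.5 times in control, and Gstm2 was at 3649 CPM in PS-MP members and 3830 CPM in control members, against 414 and 435 CPM in the other cells of PS-MP and control. The Gstm glutathione transferases are near copies of each other, so their separate levels are uncertain.

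The lowest genes included receptors, matrix proteins and Cyp11a1. Cyp11a1, the first enzyme of steroid synthesis, was at 90.5 CPM in PS-MP members and 29.5 CPM in control members, against 965 and 434 CPM in the other cells of PS-MP and control. Lhcgr, the LH receptor, was at 16.8 CPM in PS-MP members and 7.13 CPM in control members, against 163 and 76.4 CPM in the other cells of PS-MP and control. Without other cells at 500 CPM or more of Cyp11a1, the ratio of members to other cells for Lhcgr was 1.43 in PS-MP and 1.02 in control. Ccn2, a matricellular protein, was at 15.2 CPM in PS-MP members and 26.5 CPM in control members, against 259 and 353 CPM in the other cells of PS-MP and control. Nap1l5 was at 103 CPM in PS-MP members and 76.7 CPM in control members, against 903 and 926 CPM in the other cells of PS-MP and control. Lrrtm3, Prlr, Sema3g, Itga2, Mgarp, Csrp2, Thbs4 and Slc38a3 were 0.0646 to 0.121 times the other cells in PS-MP and 0.0472 to 0.103 times in control. Without the other cells rich in Cyp11a1, Prlr, the prolactin receptor, was 0.423 times in PS-MP and 0.208 times in control, and Mgarp 0.177 times in PS-MP and 0.173 times in control.

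**Figure D3:**
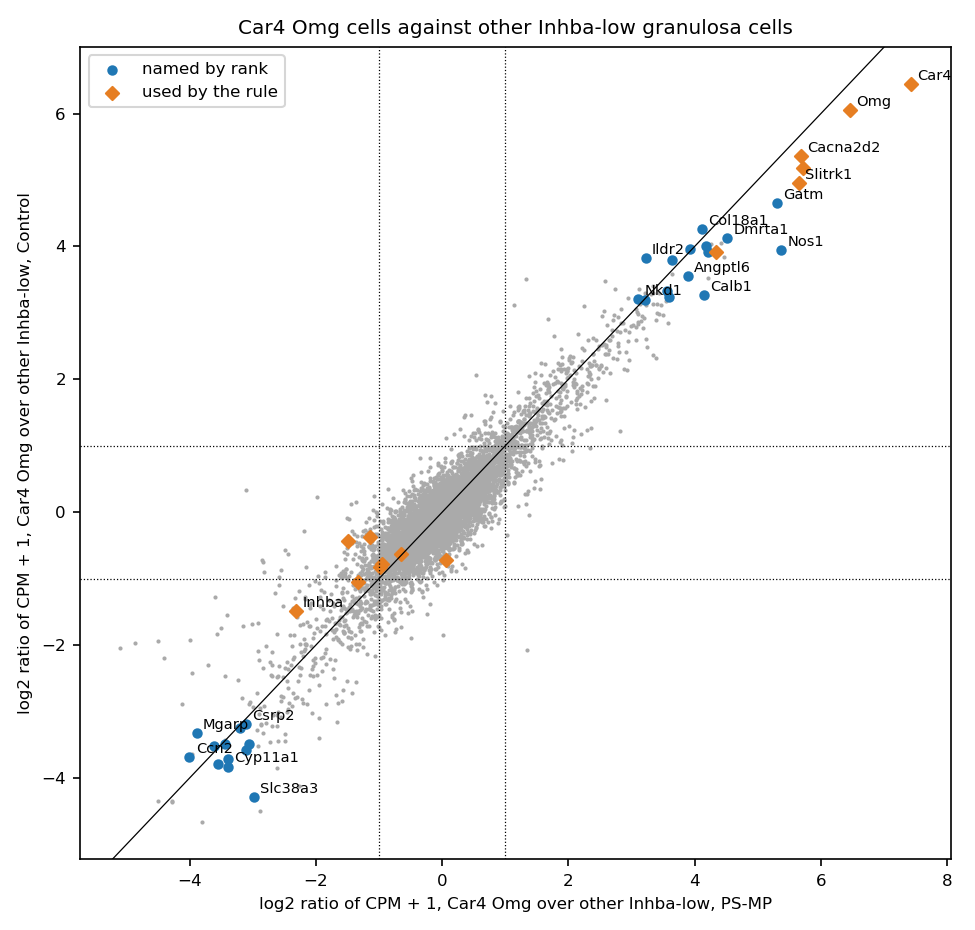
Log2 ratio of CPM + 1 in Car4 Omg cells over other Inhba-low granulosa cells, for the PS-MP library (x) and the control library (y); each grey point is a gene with at least 20 CPM in a set, blue points are the genes named by rank and orange diamonds the genes the rule used. Dotted lines mark a log2 of 1 either way and the solid line equal ratios; Nos1 and Calb1 lie below that line, with the larger ratio in PS-MP.

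WNT ligands and WNT-induced genes were high in members. WNT4 and other WNT ligands act through beta-catenin, and Axin2 and Nkd1 are transcribed in response and restrain the pathway. Of 12 measured genes of the WNT list, 6 were at least 2 times higher and 1 lower than in the other cells, in both libraries, where 5.96% of all genes were higher and 5.08% lower. Their median log2 ratio of CPM + 1 was 1.38 in PS-MP and 1.23 in control, against -0.07 and -0.08 over all genes. Wnt6 was at 139 CPM in PS-MP members and 126 CPM in control members, against 14.0 and 12.8 CPM in the other cells of PS-MP and control. Wnt4 was at 146 CPM in PS-MP members and 125 CPM in control members, against 46.8 and 38.4 CPM in the other cells of PS-MP and control. Nkd1 was at 92.1 CPM in PS-MP members and 96.8 CPM in control members, against 9.80 and 9.61 CPM in the other cells of PS-MP and control. Wnt11, Axin2 and Sfrp1 were the other 3 that were higher, and the decoy receptor Sfrp4 was lower. Axin2 also differed between the libraries, at 27.2 CPM in PS-MP members and 53.3 CPM in control members.

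The Notch targets Hes1 and Hey1 were high in members together with Notch1. Of 16 genes of the list of Notch, hedgehog and Hippo genes, 5 were higher in both libraries (Notch1, Hes1, Hey1, Hey2 and the hedgehog receptor Ptch1) and 2 were lower (Ccn1 and Ccn2), beside 5.96% and 5.08% of all genes. Hes1 was at 293 CPM in PS-MP members and 477 CPM in control members, against 60.7 and 54.8 CPM in the other cells of PS-MP and control. Hey1 was at 33.6 CPM in PS-MP members and 43.5 CPM in control members, against 3.49 and 3.74 CPM in the other cells of PS-MP and control. The hedgehog ligand Ihh, of the same list, was at 103 CPM in PS-MP members and 145 CPM in control members, against 132 and 137 CPM in the other cells of PS-MP and control.

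Granulosa regulators split in their direction. Of 19 measured genes of the granulosa list, 4 were higher in members of both libraries and 9 lower, beside 5.96% higher and 5.08% lower of all genes. The higher ones were Wt1, Foxl2, Kitl and Amhr2. Wt1, a transcription factor of the early gonad, was at 676 CPM in PS-MP members and 659 CPM in control members, against 118 and 141 CPM in the other cells of PS-MP and control. Kitl, the ligand of the oocyte receptor Kit, was at 343 CPM in PS-MP members and 340 CPM in control members, against 81.6 and 69.9 CPM in the other cells of PS-MP and control. Among the lower ones, Fst was at 89.7 CPM in PS-MP members and 102 CPM in control members, against 760 and 764 CPM in the other cells of PS-MP and control. Foxo1 was at 173 CPM in PS-MP members and 179 CPM in control members, against 895 and 1184 CPM in the other cells of PS-MP and control. Fshr was at 24.0 CPM in PS-MP members and 25.1 CPM in control members, against 120 and 151 CPM in the other cells of PS-MP and control. Inhbb, Esr2, Hsd17b1, Bmpr1b, Bex4 and the gap junction gene Gja1 made up the rest, and Gja1 was still at 512 CPM in PS-MP members and 480 CPM in control members.

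Steroid and replication genes were low beside the other Inhba-low cells. Of 12 genes of steroid synthesis, none was higher and 8 were lower in members of both libraries, and of 21 DNA replication genes none was higher and 7 were lower. For these lists and the IGF and matrix lists, too, 5.96% of all genes were higher and 5.08% lower. The other cells included cells rich in Cyp11a1. Without those at 500 CPM or more, the ratio of members to other cells for Cyp11a1 was 1.29 in PS-MP and 0.997 in control. That choice itself sets this shift, and the steroid list was not recounted without them. In the IGF list of 10 genes, Igfbp2 and Igfbp5 were higher and Igf1, Igfbp4 and Igfbp7 lower. Igf1 was at 72.9 CPM in PS-MP members and 44.1 CPM in control members, against 309 and 367 CPM in the other cells of PS-MP and control. Of 28 matrix genes 5 were higher and 6 lower, and Sdc4 and Timp3, a syndecan and a metalloproteinase inhibitor, were 3.40 to 4.38 times the other cells over both libraries.

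**Figure D4:**
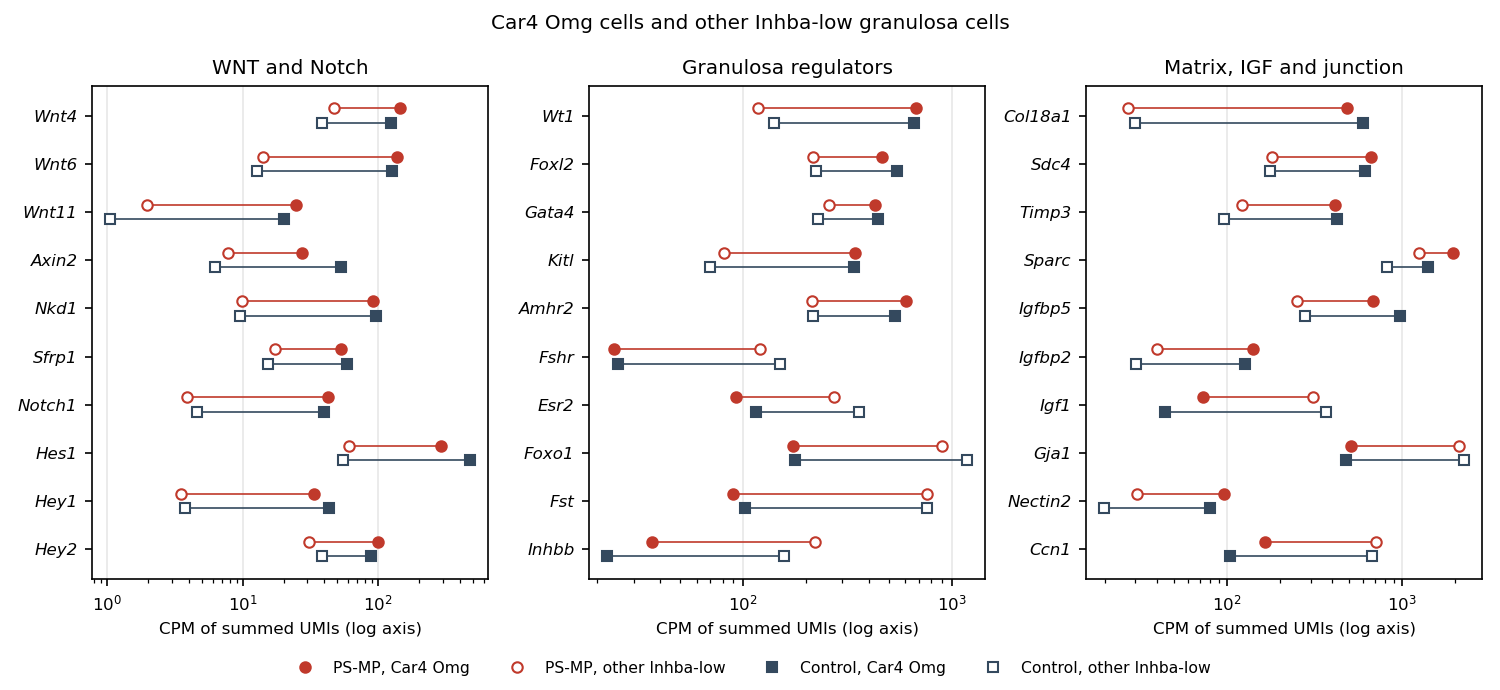
CPM of summed UMIs (log axis) of 30 genes of the WNT, Notch, granulosa, matrix, IGF and junction lists in Car4 Omg cells (filled) and other Inhba-low cells (open), with PS-MP (circles) above control (squares). Lines join the cell sets of a library. The WNT and Notch genes shown were taken from those called higher in members, so their direction was set by that choice. Sfrp4, which was lower, and the list genes without a call are not shown there. Fshr, Esr2, Foxo1, Fst and Inhbb are lower.

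Members of PS-MP and control were then compared gene by gene. Of 7485 genes with at least 20 CPM in either library, 250 were at least 1.5 times higher in PS-MP members (3.34%) and 193 at least 1.5 times lower (2.58%), 5.92% in either direction. With an interval that also lay clear of 1, 187 were higher (2.5%) and 133 lower (1.78%), 4.28% in either direction. The median log2 ratio over all genes was 0.01. In other Inhba-low cells, which summed to 41542938 UMIs in PS-MP and 43899190 in control, 126 of 7341 genes were higher and 45 lower. With the whole cluster in place of the members (367 PS-MP and 670 control cells) 98 were higher and 72 lower of 7410 genes. Of these, 53 and 39 were among the members' own 250 and 193.

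Axin2 and Hes1 were among the lowest in PS-MP members. Axin2 had 0.511 times the control level (interval 0.342 to 0.744) and Hes1 0.615 times (0.547 to 0.690). In other Inhba-low cells the ratio was 1.25 for Axin2 and 1.11 for Hes1. In the whole cluster it was 0.608 for Axin2 and 0.735 for Hes1. In members with at least 4 markers it was 0.746 for Axin2, with an interval of 0.455 to 1.19 that includes 1, and 0.742 for Hes1, so the 1.5-fold limit was not met there by either gene, nor by Hes1 in the whole cluster. The other 10 lowest named genes were Nr2c2, Prkce, Cbll1, Cyp1b1, Gnao1, Rprd2, Sh3kbp1, Gng7, Mdn1 and Lbh, at 0.560 to 0.637 times control. Nr2c2, a nuclear receptor, was 0.843 times control in the whole cluster, with an interval of 0.698 to 1.01, and 0.328 times in thinned cells. Lbh was 0.870 times in the whole cluster, with an interval that includes 1, and Sh3kbp1 was 0.398 times with at least 4 markers and 0.894 times in thinned cells. Cyp1b1, an enzyme of estrogen and xenobiotic oxidation, was at 52.9 CPM in PS-MP members and 89.0 CPM in control members, and it was also lower in other PS-MP Inhba-low cells, at 0.506 times control. Igfbp5, which did not meet the 1.5-fold limit, was at 682 CPM in PS-MP members and 976 CPM in control members (0.698 times, 0.646 to 0.754). It was lower in PS-MP with 3, 4 and 5 markers. With 6 markers it was higher in PS-MP, at 648 CPM against 449 CPM in control. With 2 markers, just outside the rule, it was also higher in PS-MP, at 1199 CPM against 974 CPM in control.

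Kcnq1ot1, a long RNA read from within Kcnq1 on the opposite strand, had the highest ratio among the genes ranked between libraries, with 64 UMIs in PS-MP members and 59 in the deeper control members (2.56 times the control CPM, 1.77 to 3.71). It overlaps exons of Kcnq1, and whether counting used strand is not stated, so reads of an overlapping pair cannot be told apart. The same holds for Nos1, Axin2, Nr2c2, Gnao1, Cish, Cbll1, Cep20, Ildr2, Notch1, Foxl2, Fst and Foxo1, whose exons overlap a gene on the opposite strand, and Pcsk6 and Prlr share exons with a gene model on their own strand. In the whole cluster its ratio was 1.60. Errfi1, an inhibitor of EGF receptor signalling, was at 126 CPM in PS-MP members and 63.8 CPM in control members, at 1.97 times (1.58 to 2.45), against 1.43 times in other Inhba-low cells. Nos1 was at 90.5 CPM in PS-MP members and 51.3 CPM in control members, at 1.77 times (1.37 to 2.27). It was 1.26 times control with at least 2 markers and 1.45 times in the whole cluster, both under the 1.5-fold limit. Sod3, an extracellular superoxide dismutase, was at 125 CPM in PS-MP members and 65.9 CPM in control members, at 1.90 times (1.53 to 2.35). The other 8 of the 12 highest were Pitpnc1, Kcnd2, Emp1, Cep20, Slc25a30, Hspa1b, Cish and Shisa9, at 1.75 to 2.08 times control. Hspa1b turned below 1 in cells thinned to 3500 UMIs, at 0.650 times, and in cells with at least 4 markers, at 0.807 times. Cep20 was 1.03 times control and Cish 4.11 times in thinned cells. Emp1 was 1.55 times control without the cells rich in oocyte or stromal UMIs.

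Omg, a gene of the rule, was 1.83 times control in PS-MP members (1.53 to 2.19) and 1.36 times in thinned cells, where its interval includes 1, and these values are a description because Omg chose the members. Slitrk1 was 1.40 times control in PS-MP members (1.08 to 1.80). Car4 was 0.892 times (0.780 to 1.02) and Pld5 0.858 times (0.697 to 1.05), both with intervals that include 1. The metallothionein Mt2 was at 151 CPM in PS-MP members and 81.8 CPM in control members. Cyp11a1 was 3.06 times control in PS-MP members (2.30 to 4.10) and 2.23 times in other Inhba-low cells, at levels of 90.5 CPM in PS-MP members and 29.5 CPM in control members. It was not ranked between libraries because its PS-MP level was under 0.1 times the 1596 CPM of PS-MP cells with little Inha, and the part of carried-over RNA in its ratio was not tested.

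**Figure D5:**
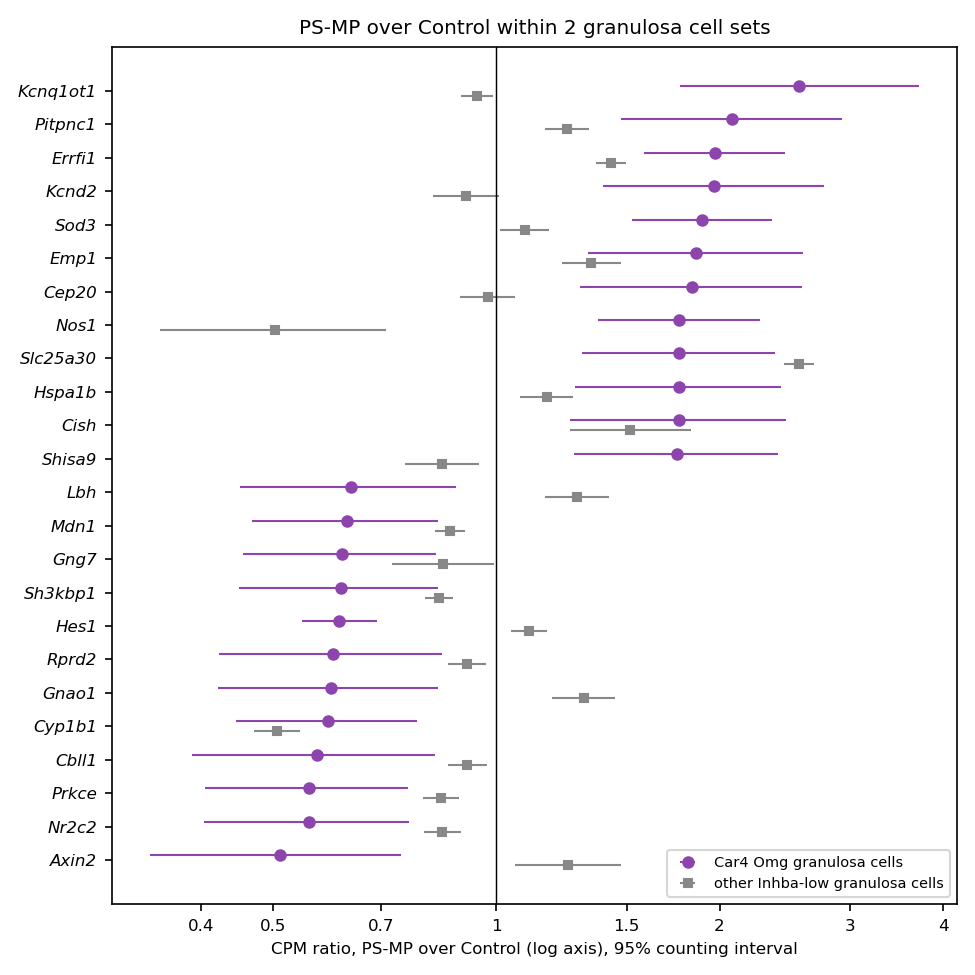
Ratio of CPM in PS-MP over control (log axis) for the 12 highest and 12 lowest named genes, in Car4 Omg cells (circles) and in other Inhba-low granulosa cells (squares), with 95% counting intervals. Axin2, Hes1, Gnao1 and Lbh lie below 1 in Car4 Omg cells and above 1 in the other cells, and Kcnq1ot1, Nos1 and Shisa9 lie the other way.

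Markers of other cells were counted in the members. Oocyte markers summed to 50.5 CPM in PS-MP members and 91.0 CPM in control members, against 8.26 and 6.51 CPM in the other Inhba-low cells of PS-MP and control, with 2 of 6 markers at 0 in PS-MP and 1 in control. A few cells carried most of them: 5 members held 79.4% of these UMIs in PS-MP and 88.8% in control. Without members with 10 or more oocyte UMIs (1 in PS-MP and 5 in control), the sum was 23.5 CPM in PS-MP and 10.5 CPM in control, so the direction between the libraries turned. Smooth muscle or pericyte markers summed to 40.9 CPM in PS-MP members and 19.4 CPM in control members, with 84.3% of the UMIs in 5 cells in PS-MP and 47.4% in control. Of these markers Rgs5 had 26 UMIs in PS-MP members and 4 in control members, at 15.3 times the control CPM (5.32 to 60.5). Stromal fibroblast markers summed to 83.3 CPM in PS-MP members and 182 CPM in control members. Without 5 control members that each held 10 or more stromal UMIs, the control value was 87.3 CPM, and Col1a1 was at 10.4 CPM in PS-MP members and 9.71 CPM in control members. Without the cells with 10 or more oocyte or stromal UMIs, 217 of the 250 higher and 159 of the 193 lower genes kept their call. Luteal markers summed to 228 CPM in PS-MP members and 128 CPM in control members, against 1586 and 753 CPM in the other cells of PS-MP and control. The theca genes Insl3 and Fbxw16 and the glial genes Mog, Sox10 and Mag were at 0 in members of both libraries.

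Members also varied among themselves. After thinning to 3500 UMIs, the variance over the mean was 5.73 in PS-MP and 6.41 in control members for Nnat, and 3.65 in PS-MP and 6.64 in control members for Igfbp5. The median of that ratio over 3083 genes was 1.11 in PS-MP and 1.10 in control. Cxcl10 had a UMI in 10.7% of PS-MP members and 7.93% of control members at that depth, with a ratio of 3.77 in PS-MP and 4.96 in control, so its molecules sat in few cells. The immediate early gene Fos, which responds to dissociation, was at 2449 CPM in PS-MP members and 3222 CPM in control members.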

How the data were processed

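Single-cell RNA-seq of ovaries gave 2 libraries, 1 for PS-MP and 1 for control. The deposited matrices hold raw UMI counts per gene and cell, as the authors' files give them. Per the submitters' processing notes, GRCm39 and Seurat were used. No aligner or cell caller is named in the sources used here. Cells were kept with 500 or more genes and at most 25% mitochondrial counts. UMIs were summed over the cells of a set and library and scaled to CPM. Ratios have exact conditional binomial intervals, CPM exact Poisson intervals and shares Clopper-Pearson intervals (95%). List medians use log2 of CPM + 1. The ratio limits were 2 in both libraries between cell sets and 1.5 between libraries, with 20 CPM in at least 1 value. Clustering used scanpy 1.11.5 and leidenalg 0.10.2 on log counts with 2000 variable genes and resolution 0.5. Scrublet, at an assumed rate of 0.05, marked doublets, which stayed in. Other Inhba-low cells are non-member, non-dividing Inha cells under the Inhba limit. Within these other Inhba-low cells, Amh-positive cells had 200 CPM of Amh, and the Ghr and Ntng1 sets had 2 of their 3 genes. The ratio intervals and calls were run on simulated Poisson totals per library. Those totals hold no added variation between cells, so that run cannot show how the intervals do where few cells carry a gene. Named genes between libraries were the 12 highest and 12 lowest ratios with 50 CPM, an interval without 1 and at least 0.1 times the level in cells with little Inha. Between sets they were the 15 highest and 12 lowest, plus rule genes and up to 4 of each list. Further list members, Gstm2, Nnat, Cxcl10 and Fos were chosen after their values were seen. The members, lists and rules were chosen with earlier results of these data known. Alternatives changed doublets, mitochondrial limit, membership limits, depth, scaling and minimum level. The later additions left out cells rich in Cyp11a1, in oocyte or stromal UMIs, or in the members' cluster, or took that whole cluster, and were chosen after seeing the data.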

Additional observations from a re-analysis of the deposited data

Results flagged for a closer look

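For 11 of 50 named genes, the PS-MP over control ratio lay on opposite sides of 1 in Car4 Omg granulosa cells and in other Inhba-low granulosa cells, each with a counting interval without 1. The difference between the cell sets was not tested, since each group is 1 library. Many of the 50 genes were named for a high or low ratio in members with an interval without 1. That choice fixed part of the count beforehand. The same count over all tested genes is not given, so the 11 have no background to be judged against. Of the 11 genes, 4 were lower in PS-MP members. Axin2 was at 0.511 times control in members and 1.25 times in other cells, and at 0.746 times with an interval that includes 1 in members with at least 4 markers. Gnao1, a G protein subunit, was at 0.600 times in members and 1.31 times in other cells. Hes1 was at 0.615 times in members and 1.11 times in other cells. Lbh was at 0.637 times in members and 1.29 times in other cells, and its ratio in the whole cluster, 0.870, had an interval that includes 1. The other 7 were higher in PS-MP members. Kcnq1ot1 was at 2.56 times in members and 0.942 times in other cells. Nos1 was at 1.77 times in members and 0.503 times in other cells, where its level was only 1.20 CPM in PS-MP and 2.39 CPM in control. Among those other cells, Nos1 was at 13.7 CPM in PS-MP and 33.8 CPM in control with 2 markers. With no marker it was at 0.828 CPM in PS-MP and 1.15 CPM in control. Its ratio was 1.26 in cells with at least 2 markers and 1.45 in the whole cluster, both under the 1.5-fold limit. Shisa9 was at 1.75 times in members and 0.846 times in other cells, and at 1.24 times in the whole cluster with an interval that includes 1. Slc38a3, at 27 UMIs in PS-MP and 32 in control members, was at 1.99 times in members and 0.774 times in other cells. Gatm was at 1.13 times in members and 0.711 times in other cells. The other cells include those with 2 markers, with 706 CPM of Gatm in 108 PS-MP cells and 823 CPM in 166 control cells. With at least 2 markers the Gatm ratio was 0.991, with an interval that includes 1. Itga6 was at 1.09 times in members and 0.852 times in other cells. Nap1l5 was at 1.35 times in members and 0.975 times in other cells.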

How the results depend on the processing

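The PS-MP minus control difference in share of kept cells (interval -1.28 to -0.734 percentage points) kept its sign in every alternative run. It was -0.0895 under a mitochondrial limit of 10%, where 7 PS-MP and 15 control members remained, -0.495 with at least 4 markers, -1.39 with at least 2, -1.40 with Inha at 1000 CPM or more and -0.535 in thinned cells. It was -1.49 of Inha cells, -3.27 of Inhba-low cells and -2.03 for the whole cluster. Against other Inhba-low cells, the 481 higher and 410 lower of 8074 genes became 289 and 238 of 4505 at a minimum of 50 CPM. At a ratio of 3 they became 255 and 188 of 8074. The mitochondrial limit gave 731 higher of 9304, and at least 2 markers 256 lower of 7966. Between PS-MP and control members, 250 genes were higher and 193 lower of 7485 tested. Under the mitochondrial limit 2423 were higher and 2955 lower of 8782, and only 115 of the 250 and 112 of the 193 kept their call. With at least 4 markers the counts were 414 and 484 of 7516 (169 and 126 kept). With at least 2 they were 142 and 101 of 7489 (73 and 56 kept). Thinned cells gave 989 and 937 of 7677 (131 and 88 kept). A minimum of 50 CPM gave 52 and 24 of 3959, and a minimum of 10 UMIs 688 and 1066 of 11430 (all 250 and 193 kept). The whole cluster gave 98 and 72 of 7410 (53 and 39 kept). Inha at 1000 CPM gave 149 higher of 7421, and leaving out mitochondrial and ribosomal protein genes 300 lower of 8192. Some named PS-MP over control ratios crossed 1. Under the mitochondrial limit these were Gng7 at 1.07, Kcnq1ot1 at 0.427, Mdn1 at 1.37, Rprd2 at 1.28 and Sod3 at 0.853. With at least 2 markers they were Gatm at 0.991 and Pcsk6 at 0.979. Hspa1b was at 0.807 with at least 4 markers and 0.650 in thinned cells. Over other cells, Angptl6 was at 0 in PS-MP under the mitochondrial limit. Without other cells rich in Cyp11a1, Cyp11a1 was at 1.29 in PS-MP and 0.997 in control, a shift that the choice of cells by Cyp11a1 sets, and Lhcgr was at 1.43 in PS-MP and 1.02 in control. Smaller sets hold fewer UMIs; other causes were not tested. No paired analysis was possible because each group is 1 library.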
